A study of Rattus norvegicus with 3 samples.

Results

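The 6 genes described here encode the cytokines IL-7 and IL-15 and their receptor chains: Il7, Il15, Il7r, Il15ra, Il2rb and Il2rg. They were chosen by name from 34034 measured genes. All 6 were measured in 2 droplet single-cell RNA libraries from untreated Lewis rats, an inbred strain aged 8 weeks. One library held CD45-negative thymic stroma, depleted of blood-derived cells, and the other thymocytes, the T cell precursors of the organ. Both came from enzyme-digested thymus, labels were projected by the authors with reference objects from mouse data, and the labels give neither the number nor the sex of the rats. A spatial section belongs to the same study and is not analysed here. Each group had 1 sample, so no test was run, and every interval is a 95% interval for counting error only.

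IL-7 is made by thymic stromal cells and acts on lymphocyte precursors through a receptor of 2 chains, the IL-7 receptor alpha chain (Il7r) and the common gamma chain (Il2rg). IL-15 is presented to neighbouring cells by its own alpha chain (Il15ra) and is received by the beta chain it shares with IL-2 (Il2rb) together with the common gamma chain. Both receptors signal through the kinases Jak1 and Jak3 to the transcription factor Stat5. Il7r is known to be high on early thymocytes, to be lost at the double-positive stage, when cells carry both CD4 and CD8, and to return after positive selection. Il2rb is known from agonist-selected and innate-like thymocytes and from CD8 T cells.

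Cells were grouped by the authors' projected label, or by their initial cluster where no projected label was given. In the stromal library 13226 of 16160 barcodes were labelled, with a median of 9087.5 unique molecular identifiers (UMIs, each a captured RNA molecule) per cell (621 to 55374). In the thymocyte library 8546 of 8574 were labelled, with a median of 3994 UMIs (520 to 107058). Levels are CPM, the UMIs of a gene per 1000000 UMIs of a label, over the 24 stromal and 21 thymocyte labels of at least 20 cells, and labels of at least 50 cells (18 and 17) were ranked. In all, 28 labelled barcodes occurred in both libraries. Some labels were mixed by their markers, or went against them. Cells labelled TEC:cTEC, for cortical epithelium, carried 752 CPM of the cortical list (Psmb11, Prss16 and Ccl25). They also carried 4533 CPM of the medullary list (Aire, Krt14 and Ccl21), against 16118 CPM in the medullary label TEC:mTEC1. Cells labelled Thymocyte in the stromal library carried 7455 CPM of the mesenchyme list (Dcn, Col1a1, Pdgfra and Pdgfrb), and cells labelled B cell there carried 704 CPM of the epithelial list (Foxn1, Krt5, Krt8 and Epcam). Cells labelled DN, for double negative, carried 702 CPM of Cd8a and 150 CPM of Cd4. Cells labelled gdT carried 247 CPM of Ptcra, the pre-T cell receptor chain, 348 CPM of the recombinase gene Rag1 and 138 CPM of Nkg7, a cytotoxic granule gene, so both names are used below only as labels.

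Il7 transcripts were concentrated in TMC4, a mesenchymal label, and in several epithelial labels. Il7 stood at 193 CPM in TMC4 (2230 UMIs, interval 185 to 201, 1249 cells), at 160 CPM in cortical epithelium (TEC:cTEC, 800 UMIs, 149 to 172), at 125 CPM in TEC:mTEC1 (117 to 134), at 122 CPM in TEC:mTEC-prol (104 to 142) and at 106 CPM in TEC:early Pr (99.8 to 111). A further mesenchymal label, TMC3, followed with 90.3 CPM (84.7 to 96.2). Every other label of at least 50 cells, the epithelial labels TEC:mTEC2 and TEC:mimetic(goblet) among them, lay at or under 32.7 CPM. Capsular fibroblasts (capFb) were lowest with 3.22 CPM (52 UMIs in 1358 cells). The intervals of TEC:mTEC1 and TEC:mTEC-prol overlapped, as did those of TEC:mTEC-prol and TEC:early Pr, so counting error leaves these neighbours unordered. TMC4 was 1.20-fold above TEC:cTEC (1.11 to 1.31), yet the mean of the CPM of single cells put it below, at 0.946 of the TEC:cTEC mean.

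A UMI of Il7 was found in 69.9% of TEC:cTEC cells (65.4 to 74.1) and in 56.1% of TMC4 cells (53.3 to 58.9). In cells labelled Thymocyte, which should lack the gene, the share was 4.14%, at a median depth of 2648 UMIs against 10535 in TEC:cTEC and 8717 in TMC4. With each cell thinned to 1000 UMIs the shares were 16.9% in TEC:cTEC, 15.5% in TMC4 and 1.29% in Thymocyte cells. No single cell held more than 1.88% of the Il7 UMIs of either TMC4 or TEC:cTEC, whereas a single cell of TEC:mTEC-prol held 52 of its 167.

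Within the cortical label, the cells of 1 cluster held more Il7 and less Il15 than the others. The 72 TEC:cTEC cells of the initial cluster TEC-a carried the cortical list (Psmb11, Prss16 and Ccl25) at 2532 CPM, against 507 CPM in the 311 TEC:cTEC cells of cluster TEC-b and 485 CPM in the 55 of cluster TEC-c. Il7 stood at 233 CPM in TEC-a (196 to 276), at 164 CPM in TEC-b (150 to 178) and at 110 CPM in TEC-c (89.5 to 133). Il15 stood at 18.7 CPM in TEC-a (11 UMIs, 9.34 to 33.5), at 136 CPM in TEC-b (124 to 148) and at 117 CPM in TEC-c (96.3 to 141). The cells richest in cortical markers thus had the highest Il7 and the lowest Il15 of the label, with intervals apart from those of TEC-b for both genes. Median depth was 4518.5 UMIs in TEC-a and 10757 in TEC-b, and TEC-c carried 10187 CPM of the mesenchyme list against 314 CPM in TEC-b. Their part in the result was not tested. The split by cluster was chosen after the values were seen.

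Endothelial cells held little Il7 in one cluster and more in another. In cluster Endo-1, Il7 stood at 2.31 CPM in arterial (EC:aEC), 4.82 CPM in capillary (EC:capEC) and 4.06 CPM in venous cells (EC:vEC), and in cluster Endo-2 at 67.8, 50.5 and 19.6 CPM for the same labels. Endo-2 cells of these labels carried 10295, 10040 and 10262 CPM of the mesenchyme list, where Endo-1 cells carried 266, 346 and 332 CPM. The endothelial list (Pecam1, Cdh5 and Kdr) was lower in Endo-2, at 1109, 1273 and 1053 CPM against 2806, 3280 and 2248 CPM. The part of the mesenchymal transcripts in the Il7 level of Endo-2 was not tested.

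**Figure D1:**
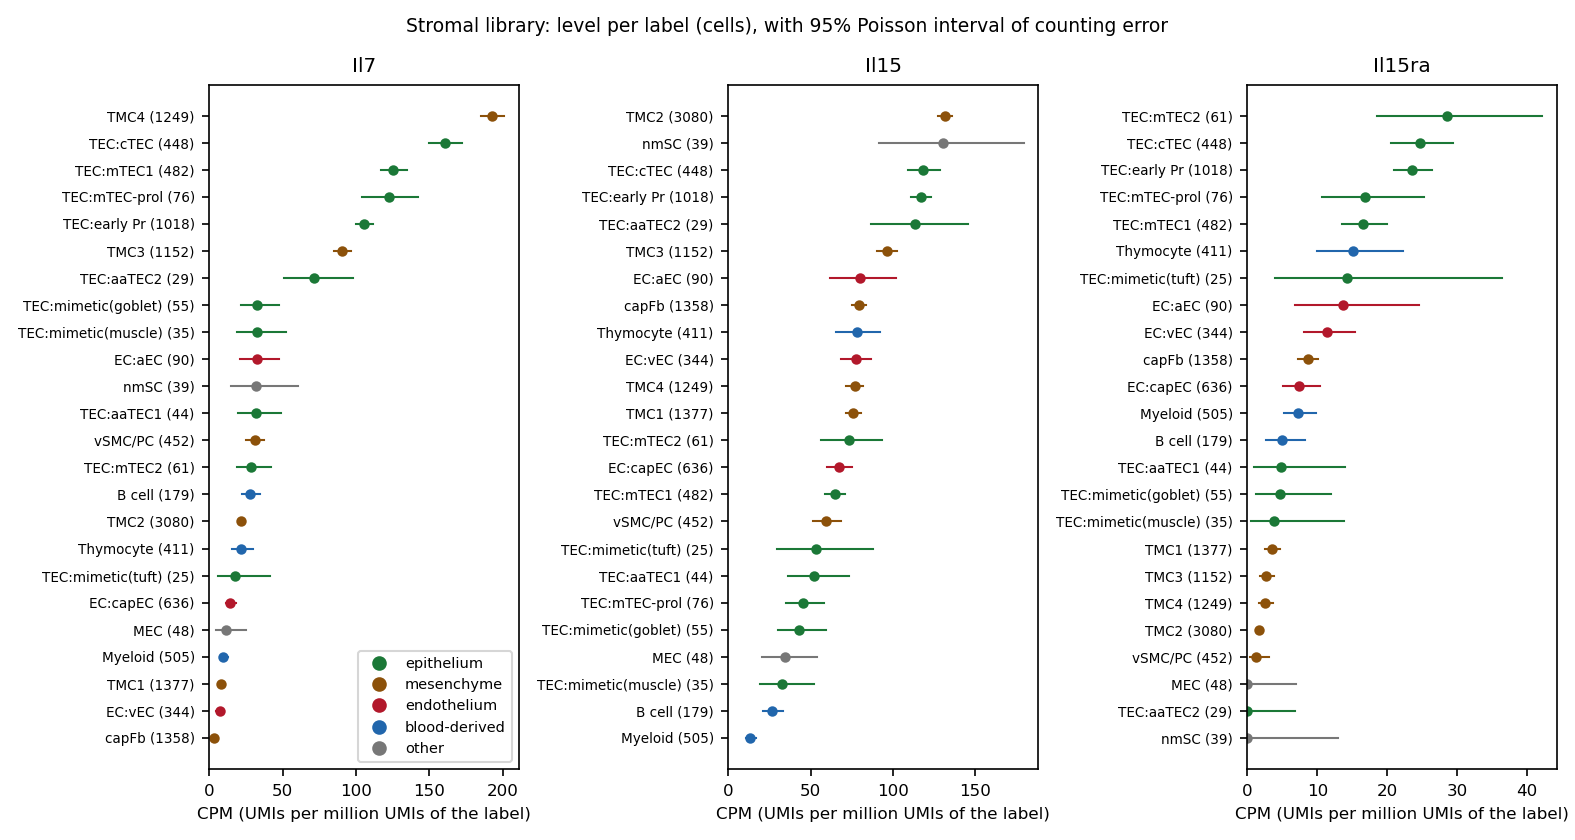
Levels of Il7, Il15 and Il15ra in the 24 stromal-library labels of at least 20 cells. Each point is the CPM of 1 label (number of cells in brackets), the bar its 95% Poisson interval for counting error, and the colour its class. Il7 runs from 3.22 CPM in capFb to 193 CPM in TMC4, Il15 is above 13 CPM in every label, and Il15ra is highest in epithelial labels.

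Il15 was detected in every stromal label. TMC2, the largest mesenchymal label, was highest with 132 CPM (3511 UMIs, 127 to 136, 3080 cells), followed by TEC:cTEC with 118 CPM (109 to 128) and TEC:early Pr with 117 CPM (111 to 124), whose intervals overlap. TMC3 stood at 96.4 CPM (90.6 to 102). Arterial cells (79.9 CPM), capFb (79.5), venous cells (77.4), TMC4 (76.8) and TMC1 (76.0) did not differ beyond their intervals. TEC:mTEC1 stood at 64.7 CPM (58.6 to 71.2), cells labelled B cell at 26.6 CPM (21.0 to 33.3) and Myeloid at 13.4 CPM (10.7 to 16.7), the lowest label of at least 50 cells. The lead of TMC2 over TEC:cTEC was 1.11-fold (1.02 to 1.21). A UMI of Il15 was found in 63.8% of TEC:early Pr cells, 56.7% of TEC:cTEC cells, 54.3% of TMC2 cells and 11.7% of Myeloid cells, at median depths of 10977, 10535, 8269.5 and 9510 UMIs. No label of the stromal library was free of Il15, so these shares have no label as a background.

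The 2 contrasts set for the stroma were TEC:cTEC over TEC:mTEC1, cortical over medullary epithelium by label, and TMC4 over TMC1 to TMC3 pooled. A gene was called at 2-fold or more with at least 20 UMIs in the higher class. Over the 13882 genes compared between the epithelial labels, 4.88% were called higher in TEC:cTEC and 9.21% lower, and none of the 4 genes with enough UMIs was called. Il7 was 1.28-fold higher in TEC:cTEC (1.16 to 1.41), Il15 1.83-fold (1.61 to 2.08) and Il15ra 1.50-fold (1.14 to 1.96), while Il2rg had 13 and 20 UMIs and an interval that spans 1. The Il15 ratio did not hold in the TEC:cTEC cells of cluster TEC-a, richest in cortical markers. Their Il15 level, given above, lay below that of TEC:mTEC1, while their Il7 level lay above it. Thinning to 1000 UMIs put Il15 at 2.71-fold and Il7 at 2.05-fold, both past 2-fold, and turned Il15ra to 0.632 on 7 and 12 UMIs. Over the 16345 genes compared between the mesenchymal labels, 9.59% were called higher in TMC4 and 12.2% lower, and 2 of the 4 genes with enough UMIs, Il7 and Il2rg, were called higher. Il7 stood at 193 CPM in TMC4 against 32.1 CPM in the pooled labels, a 6.01-fold difference (5.64 to 6.41). TMC4 also held 3608 CPM of the mesenchyme list, against 11519 CPM in TMC3, 24733 in TMC2 and 25098 in TMC1, and 22085 CPM of the chemokine gene Ccl21, against 4160, 106 and 85.7 CPM. The keratin Krt14 (13.8 CPM in TMC4, 3622 in TEC:mTEC1) and the epithelial list (26.7 CPM, 29.2 to 29.9 in TMC1 to TMC3) were low in TMC4. The part of these genes in the Il7 difference was not tested. Il15 was lower in TMC4, at 0.704 of the pooled level (0.655 to 0.755), and Il15ra hardly differed (1.05-fold, 0.673 to 1.58). Il7 and Il15 thus divided the mesenchyme differently, with Il7 highest in TMC4 and Il15 in TMC2.

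Il15ra, which carries IL-15 to the cell surface, was found mainly in epithelium. It stood at 24.7 CPM in TEC:cTEC (123 UMIs, 20.5 to 29.4), 23.6 CPM in TEC:early Pr (20.9 to 26.5), 16.8 CPM in TEC:mTEC-prol (10.7 to 25.2) and 16.5 CPM in TEC:mTEC1 (13.5 to 19.9). TEC:mTEC2 had the highest value, 28.6 CPM (18.5 to 42.2), but its 25 UMIs lay in 6 cells and 15 of them in 1 cell, so its 1.16-fold lead (0.722 to 1.79) is within counting error. Not every epithelial label was high, since an Il15ra UMI was found in 4 of 55 TEC:mimetic(goblet) cells and 0 of 29 TEC:aaTEC2 cells. Outside epithelium, venous cells had 11.3 CPM (8.13 to 15.4), capFb 8.60 CPM (7.23 to 10.2) and Myeloid 7.29 CPM (44 UMIs). The 4 TMC labels lay between 1.72 and 3.49 CPM, and vSMC/PC, the mural label, at 1.19 CPM (4 UMIs). TMC2, highest in Il15, was therefore among the lowest in Il15ra.

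Il15 and Il15ra were found in the same cell most often in epithelium. Both had a UMI in 14.5% of TEC:mTEC-prol cells (11 of 76, 7.45 to 24.4) and in 14.4% of TEC:early Pr cells (147 of 1018, 12.3 to 16.7). They did in 13.6% of TEC:cTEC cells (61 of 448, 10.6 to 17.1) and in 8.51% of TEC:mTEC1 cells (41 of 482, 6.17 to 11.4). The share was 6.67% in arterial cells (6 of 90, 2.49 to 13.9) and 6.56% in TEC:mTEC2 (4 of 61, 1.82 to 15.9). It was 5.38% in capFb (4.24 to 6.71), 4.65% in venous cells (2.68 to 7.44) and 0.779% in TMC2 (24 of 3080, 0.500 to 1.16). Cells thinned to 1000 UMIs held both in 0.394% of TEC:early Pr and 0.228% of TEC:cTEC cells, too few for an order. Among labels of at least 50 cells, Il7 and Il15 had a UMI in the same cell in 41.3% of TEC:cTEC (36.7 to 46.0) and 39.1% of TEC:early Pr cells (36.1 to 42.2). The share was 29.3% in TEC:mTEC1 (25.2 to 33.5), 25.0% in TEC:mTEC-prol (15.8 to 36.3) and 24.9% in TMC4 (22.5 to 27.4). After thinning it was 1.82% in TEC:cTEC, 1.28% in TEC:early Pr, 0.420% in TEC:mTEC1, 0 in TEC:mTEC-prol and 1.28% in TMC4.

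Il2rg, the common gamma chain best known from lymphocytes, was highest in venous endothelium among the ranked stromal-library labels. Venous cells held 221 CPM (801 UMIs, 206 to 237, 344 cells), above the cells labelled Thymocyte in the same library with 153 CPM (263 UMIs, 135 to 173), a ratio of 1.44 (1.26 to 1.67) that was 1.14 (0.824 to 1.57) after thinning to 1000 UMIs. TEC:mTEC2 held 152 CPM (133 UMIs, 127 to 180), capillary cells 121 CPM (539 UMIs, 111 to 132) and arterial cells 88.6 CPM (71 UMIs, 69.2 to 112). The 3 endothelial labels were ordered venous, capillary, arterial, and the intervals of the last 2 overlapped. TMC4 held 11.9 CPM (9.95 to 14.0), 12.9-fold above TMC1 to TMC3 pooled (9.23 to 18.4), and TMC1, TMC2 and capFb held 0.248 to 0.356 CPM on 4 to 8 UMIs each. A UMI of Il2rg was found in 72.1% of venous cells (67.0 to 76.8), 46.1% of capillary cells (42.1 to 50.0) and, as a background, 0.295% of capFb cells, at median depths of 9585.5, 5805.5 and 11378.5 UMIs. After thinning to 1000 UMIs the shares were 20.3%, 11.7% and 0 of 1358 cells.

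T-lineage transcripts were scarce in endothelial cells. The 10 T-lineage genes (Ptprc, Lat, Lck, Ptcra, Rag1, Cd8b, Cd8a, Cd3g, Cd3e and Cd3d) summed to 39.8 CPM in venous cells, where 1 of the 10 was at 0, 33.0 CPM in capillary cells and 12.5 CPM in arterial cells, where 6 were at 0, against 7064 CPM in cells labelled Thymocyte. Of the 248 venous cells with Il2rg, 77.4% had no UMI of the 10 genes, against 92.7% of the 96 without Il2rg, at median depths of 10350 and 7952.5 UMIs. In capillary cells the shares were 85.3% of 293 and 90.4% of 343, at 7187 and 4898 UMIs. Among the 281 venous cells without such a UMI, Il2rg stood at 188 CPM (521 UMIs), and among the 560 such capillary cells at 119 CPM (446 UMIs). Cluster Endo-1, with few mesenchymal transcripts, held more Il2rg than Endo-2 in venous cells (247 against 110 CPM) and in capillary cells (133 against 76.9 CPM). TEC:mTEC2 differed from endothelium in this respect, since it carried 190 CPM of the T-lineage list and 106 CPM of the innate-like list, of which 89.1 CPM was Nkg7 in a single cell. Ptcra, a gene of the T-lineage list, was found in 50% of the 32 TEC:mTEC2 cells with Il2rg and 24.1% of the 29 without. These 2 groups averaged 4.31 and 0.966 T-lineage UMIs per cell, at median depths of 21016 and 8364 UMIs. In cells labelled B cell, Ptcra was found in 7.46% of those with Il7r and 3.57% of those without, at 11.3 and 6.16 T-lineage UMIs. Whether TEC:mTEC2 cells transcribed Ptcra themselves was not tested. Only 21 of the 61 TEC:mTEC2 cells had no T-lineage UMI, and Il2rg stood at 119 CPM there (28 UMIs), level with such capillary cells.

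**Figure D2:**
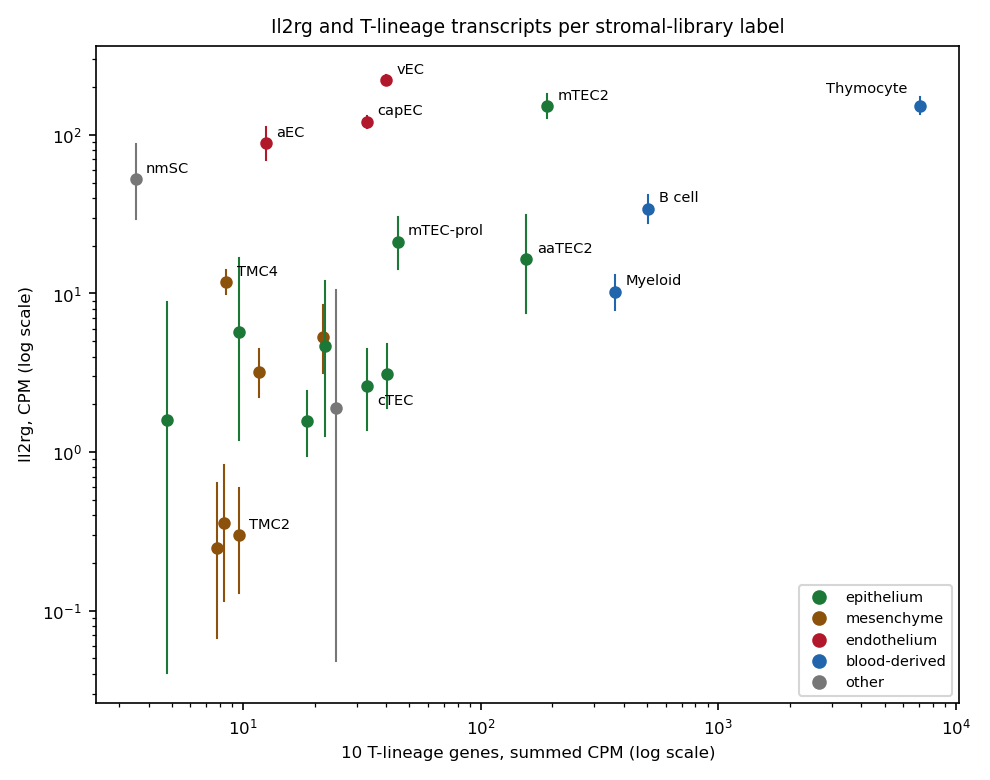
Il2rg in stromal-library labels of at least 20 cells with an Il2rg UMI, plotted against the summed level of 10 T-lineage genes, both in CPM on log axes. Each point is a label, coloured by class, and the vertical bar is the 95% Poisson interval for counting error. Venous (vEC), capillary (capEC) and arterial (aEC) endothelium stand at 88.6 to 221 CPM of Il2rg with 12.5 to 39.8 CPM of T-lineage transcripts, far to the left of Thymocyte cells at 7064 CPM.

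The other receptor chains were nearly absent from stromal cells. Il7r had 312 UMIs in labelled stromal-library cells, of which 232 lay in cells labelled B cell (81.2 CPM, 71.1 to 92.4). It had 0 UMIs in 7 of the 18 ranked labels, among them TMC4, which allows up to 0.260 CPM, and TEC:cTEC, which allows up to 0.602 CPM. A UMI was found in 37.4% of B cell cells (30.3 to 45.0) at a median depth of 14761 UMIs, against 0.0325% of TMC2 cells at 8269.5 UMIs. Of the 67 B cell cells with Il7r, 97.0% also had a UMI of the B-cell receptor genes Cd79a or Cd79b, against 33.9% of the 112 without Il7r. The lead of the B cell label over TEC:mTEC2, 2.84-fold (1.88 to 4.49), was the only one of the 5 leads with enough UMIs to pass 2-fold, where 18.3% of 14967 genes passed. TEC:mTEC2 reached 28.6 CPM through 25 UMIs in 5 cells. Leaving out cells with 3 or more T-lineage UMIs turned the lead of the B cell label to 0.194 on 7 and 18 UMIs. B cell cells with Il7r averaged 11.3 T-lineage UMIs, against 6.16 in those without. The 62 B cell cells with no T-lineage UMI held 2 Il7r UMIs (1.87 CPM). The T-lineage list includes Ptprc, which B cells carry, and its part was not tested. Il2rb had 20 UMIs in the labelled stromal cells and was at 0 in 11 of 18 ranked labels.

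In thymocytes Il7r was low in DP cells and high in mature cells. It stood at 15.1 CPM in DN cells (164 UMIs, 12.9 to 17.6), 11.3 CPM in DP-P cells, double-positive cells with 1114 CPM of the proliferation gene Mki67 (9.80 to 13.1), 1.27 CPM in DP cells (24 UMIs in 5202 cells, 0.813 to 1.89), 4.17 CPM in Pre DP-sig and 6.99 CPM in DP-sig cells, labels named for signalling. Along the CD4 labels it stood at 74.3 CPM in Immature CD4-1 (56.3 to 96.2), 284 CPM in Immature CD4-2 (249 to 323), 327 CPM in Mature CD4-1 (293 to 364) and 274 CPM in Mature CD4-2 (246 to 305). Along the CD8 labels it stood at 96.6 CPM in Immature CD8-1 (78.1 to 118), 183 CPM in Immature CD8-2 (149 to 223), 301 CPM in Mature CD8-1 (267 to 338). The 27 cells labelled Mature CD8-2 held 457 CPM (394 to 527), but Cd4 was found in 66.7% of them and Cd8a in 33.3%, against 18.7% and 85.7% of Mature CD8-1 cells, so they are given by label only. Both lineages thus showed their lowest Il7r in the first immature label and at least 274 CPM in mature labels. Mature CD4-1, Mature CD8-1, Immature CD4-2 and Mature CD4-2 were neighbours in rank, and the lead of the first over the second was 1.09-fold (0.925 to 1.28).

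A UMI of Il7r was found in 67.8% of Mature CD4-1 cells (58.7 to 76.0), 79.1% of Mature CD8-1 cells (69.3 to 86.9) and 0.211% of DP cells (0.106 to 0.378), at median depths of 7964, 10290 and 3205.5 UMIs. After thinning to 1000 UMIs the shares were 27.3%, 24.2% and 0.0387%. The 4 mature labels pooled held 317 CPM (1150 UMIs) against 1.27 CPM in DP cells, a 250-fold difference (167 to 391). Without the cells above the 99th percentile of UMIs of their label this became 482-fold. All cells of the initial cluster Mature SP, which also holds cells of immature and agonist-selected labels, stood 397-fold above the DP clusters. DN cells held 11.9-fold more Il7r than DP cells (7.75 to 19.2), which became 23.1-fold without the deepest cells and 83.4-fold by initial cluster.

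The Il7r of DN and of immature labels lay in a part of their cells. Among DN cells, the 192 of the initial cluster DN held 20.7 CPM (162 UMIs, 17.6 to 24.1), the 151 of cluster DP-P2 held 0.948 CPM (2 UMIs) and the 36 of cluster DP-P3 none. DP-P cells split likewise, with 19.0 CPM in cluster DN (16.0 to 22.3) and 2.84 CPM in cluster DP-P1 (1.78 to 4.30). Immature CD4-1 cells held 27.5 CPM in cluster Early SP (15.0 to 46.1) and 171 CPM in cluster Mature SP (124 to 231). AgoSel1, a label of agonist-selected cells, held no Il7r UMI in 38 Early SP cells and 163 CPM in 32 Mature SP cells (117 to 222). Cells labelled gdT held 243 CPM (225 to 263), and 69.4% of the 98 with Il7r had a UMI of Nkg7 against 13.3% of the 30 without, at median depths of 21294 and 7629.5 UMIs. The share of gdT cells with Ptcra was the same with and without Il7r, at 79.6% and 80.0%. Of the 45 DN cells with Il7r, 28.9% had Nkg7 against 2.61% of the 345 without, at 44353 and 20417 UMIs. Cells of the mixed label B+myeloid held 128 CPM of Il7r (114 to 143), and 53.2% of the 62 with Il7r had a UMI of Cd5l, a macrophage gene, against 12.0% of the 108 without. Depth differed between these cells, and its part was not tested.

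Promoters are shown for Il7r and Il2rg, the chains of 1 receptor that spanned 1.27 to 327 and 84.1 to 350 CPM across the ranked thymocyte labels, and for Il15ra, which was highest in epithelium. Windows of 250 bases before the transcription start came from RefSeq on the GRCr8 assembly, which matched 4 of the 6 genes, all but Il7 and Il2rb. Capitals mark matches, on either strand, to TGTGGT (the core of the RUNX motif), CNGGAAG (ETS), AANNGAAA (IRF), TTCNNNGAA (STAT) or TGTTTAC (FOXO).
Il7r, chr2:60204918-60205167, minus strand: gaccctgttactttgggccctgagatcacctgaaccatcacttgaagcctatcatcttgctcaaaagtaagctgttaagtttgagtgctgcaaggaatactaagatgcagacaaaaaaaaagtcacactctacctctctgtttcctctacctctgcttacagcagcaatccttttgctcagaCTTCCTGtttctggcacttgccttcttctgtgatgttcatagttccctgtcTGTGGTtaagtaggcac
Il2rg, chrX:70439001-70439250, minus strand: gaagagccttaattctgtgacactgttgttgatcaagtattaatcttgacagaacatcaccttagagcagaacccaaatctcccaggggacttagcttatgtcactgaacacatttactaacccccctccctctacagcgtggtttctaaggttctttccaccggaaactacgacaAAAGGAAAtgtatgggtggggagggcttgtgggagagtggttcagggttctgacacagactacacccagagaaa
Il15ra, chr17:71741654-71741903, minus strand: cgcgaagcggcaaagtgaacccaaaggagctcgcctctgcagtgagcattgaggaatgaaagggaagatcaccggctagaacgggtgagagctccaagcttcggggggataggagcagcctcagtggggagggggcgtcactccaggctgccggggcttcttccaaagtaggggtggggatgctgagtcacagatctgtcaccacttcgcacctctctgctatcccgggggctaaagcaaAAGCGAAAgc
The Il7r window held a RUNX match from 17 to 12 bases before the start and an ETS match, read on the opposite strand as CTTCCTG, from 68 to 62 bases before it. Il2rg held an IRF match from 74 to 67 bases, and Il15ra an IRF match from 10 to 3 bases before the start. The Il15 window held an ETS match from 90 to 84 bases, and since the RefSeq gene begins 8546 bases further upstream, it belongs to a start inside the gene. None of the matches overlapped. Of 33469 windows of the same length, 14.5% held the RUNX letters, 25.9% the ETS, 23.3% the IRF, 7.67% the STAT and 3.21% the FOXO letters. A match describes letters in a window and is not a binding site.

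**Figure D3:**
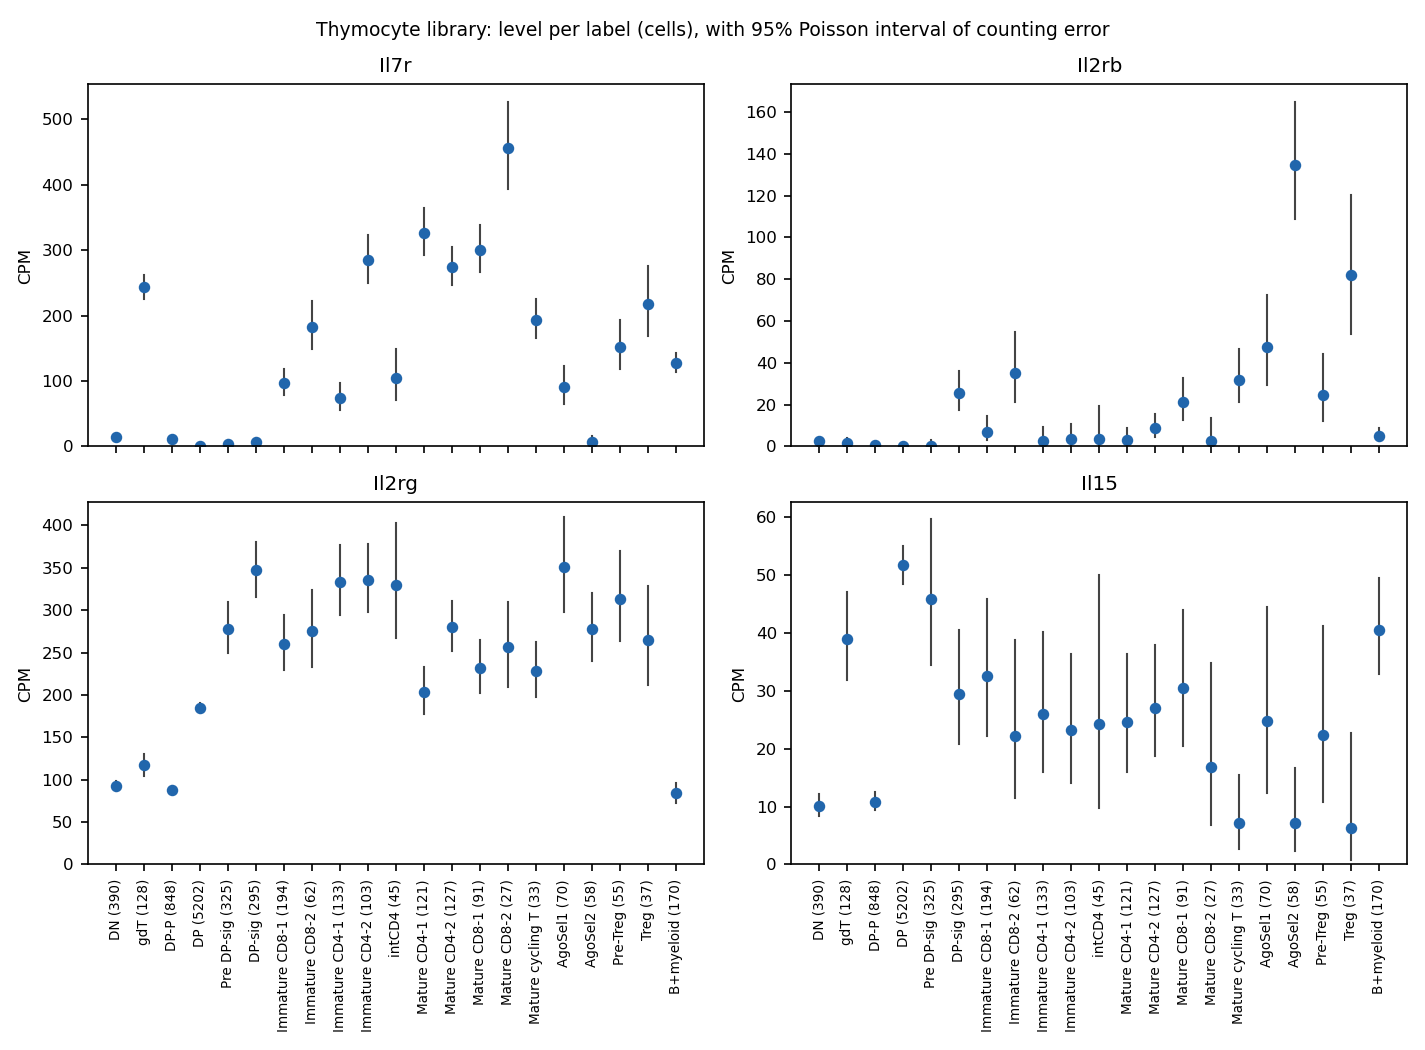
Levels of Il7r, Il2rb, Il2rg and Il15 in the 21 thymocyte-library labels of at least 20 cells, in CPM, with the number of cells in brackets. Points are labels and bars are 95% Poisson intervals for counting error. Il7r is near 0 from DP to DP-sig cells and highest in mature labels, Il2rb is highest in AgoSel2 and Treg cells, Il2rg is present throughout, and Il15 is highest in DP cells.

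Il2rb, the beta chain shared by IL-2 and IL-15, was highest in agonist-selected cells. AgoSel2 held 135 CPM (94 UMIs, 109 to 165, 58 cells), regulatory T cells (Treg, 37 cells) 82.1 CPM (26 UMIs, 53.6 to 120) and AgoSel1 47.5 CPM (21 UMIs, 29.4 to 72.6). Immature CD8-2 held 35.1 CPM (21.1 to 54.8), DP-sig 25.6 CPM (33 UMIs, 17.6 to 36.0), Pre-Treg 24.6 CPM (12.3 to 44.0) and Mature CD8-1 21.1 CPM (12.9 to 32.6). The CD4 labels held less, with 8.77 CPM in Mature CD4-2 (4.38 to 15.7) and 2.95 CPM in Mature CD4-1 (3 UMIs, 0.609 to 8.63). DN cells held 27 UMIs in 4 cells (2.49 CPM), 10 of them in a single cell, and DP cells held 1 UMI in 5202 cells. Pre DP-sig cells held 0 UMIs, which allows up to 2.50 CPM, below the interval of DP-sig cells. A UMI was found in 44.8% of AgoSel2 cells (31.7 to 58.5) at a median depth of 11327.5 UMIs, against 0.0192% of DP cells at 3205.5, and in 10.3% of AgoSel2 cells after thinning.

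AgoSel2 exceeded the next ranked label, AgoSel1, in Il2rb by 2.84-fold (1.75 to 4.80). This was the only one of 5 leads with enough UMIs in the thymocyte library to pass 2-fold, where 20.6% of 10690 genes passed. AgoSel2 held almost no Il7r (5 UMIs, 7.17 CPM), while Treg held 218 CPM (169 to 276) and AgoSel1 90.4 CPM (64.6 to 123). The 2 labels highest in Il2rb thus stood on opposite sides for Il7r. In DP-sig cells Il2rb was 484-fold above DP cells, with an interval from 81.1 to 19708 because the DP level rests on 1 UMI.

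Il2rg was found at every stage. It stood at 92.2 CPM in DN (86.6 to 98.1), 87.8 CPM in DP-P (83.4 to 92.3), 185 CPM in DP (179 to 191), 278 CPM in Pre DP-sig (249 to 310) and 347 CPM in DP-sig cells (316 to 381). AgoSel1 was highest with 350 CPM (297 to 410), which did not differ from DP-sig, Immature CD4-2 (336 CPM), Immature CD4-1 (334 CPM) or intCD4 (330 CPM) beyond their intervals. Mature labels lay lower, from 204 CPM in Mature CD4-1 (177 to 233) to 280 CPM in Mature CD4-2 (251 to 311). Across the ranked labels Il2rg spanned 84.1 to 350 CPM, where Il7r spanned 1.27 to 327 CPM and Il2rb 0 to 135 CPM.

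In the contrasts with DP cells, called members stood against the share of all genes called in the same direction. In DN cells Il7r and Il2rb were called higher, where 17.1% of 13161 genes were, and Il15 and Il2rg lower, where 28.1% were. Il2rg stood at 0.499 of the DP level (0.465 to 0.536), and without mitochondrial, ribosomal protein and haemoglobin genes in the total it stood at 0.558 and was not called. Il2rb in DN cells was 47.1-fold above the 1 UMI of DP cells (7.77 to 1930). In DP-sig cells Il2rb was called higher, where 5.21% of 12327 genes were, and Il15ra lower, where 11.7% were, on 1 UMI against 42 and with an interval that spans 1 (0.00865 to 2.06). In mature cells Il7r and Il2rb were called higher, where 8.96% of 12666 genes were, and Il15ra lower, where 20.9% were, on 3 UMIs against 42 (ratio 0.372, 0.0738 to 1.16). Il2rg was 1.88-fold above DP in DP-sig (1.70 to 2.07) and 1.32-fold in mature cells (1.22 to 1.42).

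Il15 was also transcribed in thymocytes, most in DP cells. It stood at 51.8 CPM there (979 UMIs, 48.6 to 55.1) and at 45.8 CPM in Pre DP-sig cells (34.5 to 59.6), a lead of 1.13-fold (0.861 to 1.51). B+myeloid held 40.6 CPM (32.9 to 49.5) and gdT 38.9 CPM (31.9 to 47.1), and DP-sig held 29.5 CPM (20.9 to 40.5). DN held 10.2 CPM (8.35 to 12.2), DP-P 10.9 CPM (9.37 to 12.6) and AgoSel2 7.17 CPM (5 UMIs). DP cells thus held 5.10-fold more than DN cells (4.18 to 6.27) and 1.98-fold more than mature cells (1.60 to 2.47). A UMI was found in 14.0% of DP cells and 19.5% of DN cells, at 3205.5 and 23190 UMIs, an order against the CPM from which nothing is read. After thinning it was found in 4.90% and 1.03%. Il15ra had 131 UMIs in the labelled thymocyte library, with 8.37 CPM in B+myeloid and 7.71 CPM in gdT cells, and Il7 had 9, of which 7 lay in B+myeloid.

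In the cells as deposited, both chains of the IL-7 receptor were found together most often in mature, late immature and gdT cells. Il7r and Il2rg had a UMI in the same cell in 70.3% of Mature CD8-1 (59.8 to 79.5), 67.2% of gdT (58.3 to 75.2), 66.1% of Mature CD4-2 (57.2 to 74.3), 58.3% of Immature CD4-2 (48.1 to 67.9), 54.5% of Mature CD4-1 (45.2 to 63.6) and 53.2% of Immature CD8-2 cells (40.1 to 66.0). The small labels Mature CD8-2 and Mature cycling T reached 88.9% and 87.9%. Treg (37.8%), Pre-Treg (36.4%) and intCD4 (33.3%) lay between, and every other label lay at or under 17.5%, with 10.3% of DN (7.43 to 13.7) and 0.0961% of DP cells (5 of 5202, 0.0312 to 0.224). Of the cells with Il7r, 88.9% in Mature CD8-1 and 80.5% in Mature CD4-1 also had Il2rg, near its share over all cells of these labels (89.0% and 79.3%). Il2rb and Il2rg were found together in 39.7% of AgoSel2 (23 of 58, 27.0 to 53.4), 29.7% of Treg (11 of 37, 15.9 to 47.0), 24.2% of Mature cycling T (11.1 to 42.3), 16.1% of Immature CD8-2 (8.01 to 27.7), 15.7% of AgoSel1 (8.11 to 26.4), 15.4% of Mature CD8-1 (8.67 to 24.5) and 2.48% of Mature CD4-1 cells (0.514 to 7.07). After thinning to 1000 UMIs the IL-7 pair was found in 3.30% of Mature CD8-1, 4.96% of Mature CD4-1 and 0 of DP cells. It was found in 1.56% of gdT, 1.55% of Immature CD8-1, 0 of Mature cycling T and 10.8% of the 37 Treg cells. The Il2rb and Il2rg pair was then found in 2.70% of Treg and 1.72% of AgoSel2 cells. The order of labels for the IL-7 pair is thus not kept at equal depth, though the thinned shares rest on few cells. For the Il2rb and Il2rg pair they rest on too few cells for an order. In the stromal library the IL-7 pair was found in 20.1% of B cell cells (14.5 to 26.7) and in at most 4.92% of any other ranked label.

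**Figure D4:**
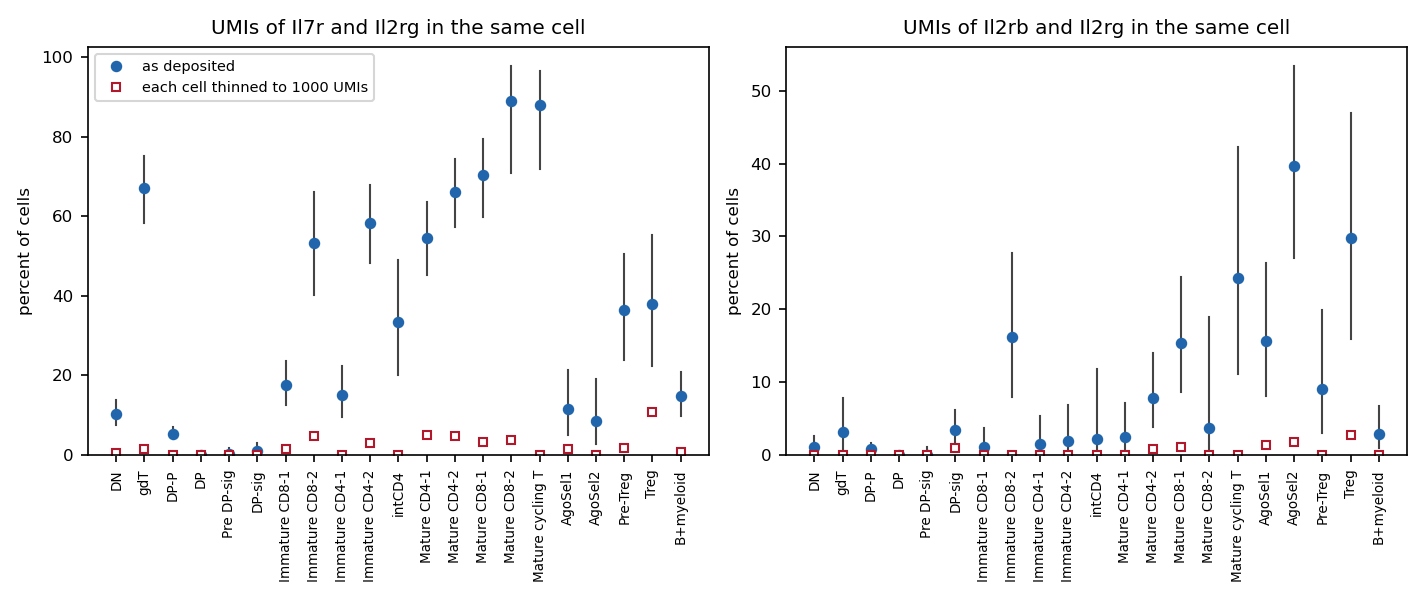
Percent of cells with UMIs of both receptor chains, Il7r with Il2rg (left) and Il2rb with Il2rg (right), in the 21 thymocyte-library labels of at least 20 cells. Filled points are the cells as deposited with exact 95% intervals, and open squares are the same cells thinned to 1000 UMIs each. As deposited, the IL-7 pair is at 0.0961% in DP and 70.3% in Mature CD8-1 cells, and the IL-15 pair is highest in AgoSel2 cells at 39.7%. After thinning, the IL-7 pair is highest in the 37 Treg cells, and the IL-15 pair is found in too few cells for an order.

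The wider pathway was read from 60 genes in 6 lists, which contain the 6 members. Between mature and DP cells, 46 of the 60 had enough UMIs, 18 were called higher and 11 lower (8.96% and 20.9% of all genes), with a median log2 ratio of 0.09 against -0.32 over all 12666 genes. Of the 8 genes listed as regulators of Il7r, 3 were called higher and 2 lower. Klf2, a factor of thymic exit, stood at 355 against 17.7 CPM, Foxo1, a known activator of Il7r, at 252 against 30.2 CPM, and Runx3, the CD8-lineage factor, at 129 against 24.1 CPM. Gfi1, a known repressor of Il7r, was lower in mature cells, at 12.1 against 66.5 CPM, as was Foxo3 (55.6 against 139 CPM). Of the 12 Stat5 targets and feedback genes, 11 had enough UMIs, 5 were called higher and 4 lower. The cyclin Ccnd2 stood at 76.3 against 0.317 CPM (6 DP UMIs), the feedback inhibitor Cish at 15.1 against 0.423 CPM (8 DP UMIs), the kinase Pim2 at 53.4 against 3.97 CPM, Myc at 37.4 against 5.29 CPM and the survival gene Bcl2 at 385 against 60.8 CPM. Its relative Bcl2l1 went the other way, at 26.2 against 266 CPM, together with Ccnd3 (54.8 against 364 CPM), Socs1 (16.8 against 52.3 CPM) and Pim1 (20.6 against 45.6 CPM).

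Among the 13 signalling genes, 5 were called higher in mature cells and 2 lower. Of those higher, the kinase gene Jak3, partner of the common gamma chain, stood at 36.6 against 10.9 CPM in DP cells, Pik3cd at 334 against 46.8 CPM, the phosphatase gene Ptpn6 at 100.2 against 37.4 CPM and Stat5a at 20.1 against 8.09 CPM. Jak1, partner of Il7r and Il2rb, was lower, at 616 against 1647 CPM, as was Pik3r1. Of the other receptor chains, Crlf2, which pairs with Il7r to bind the cytokine TSLP, was higher (32.5 against 14.2 CPM), and Il9r and Il2ra were lower (0.551 against 10.8 and 23.4 against 67.5 CPM). Of the 11 lymphocyte genes listed as responsive to IL-15, 3 had enough UMIs and 2 were called higher. Klrd1, a natural killer receptor gene, stood at 13.2 against 0.106 CPM (2 DP UMIs) and Id2 at 19.8 against 0.476 CPM (9 DP UMIs).

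Of 42 listed genes with enough UMIs, 9 were called higher and 13 lower in DP-sig than in DP cells, where 5.21% and 11.7% of all genes were, with a median log2 ratio of 0.13 against 0.03 over all 12327 genes. Of 13 signalling genes 5 were called higher and 2 lower, and of 9 Stat5 targets and feedback genes 1 higher and 5 lower. Ptpn6 stood at 346 against 37.4 CPM, Bcl2 at 359 against 60.8 CPM, Crlf2 at 59.8 against 14.2 CPM, Jak3 at 35.7 against 10.9 CPM and Pik3cd at 137 against 46.8 CPM. Lower in DP-sig were the feedback genes Socs3 (1.55 against 23.0 CPM, 2 DP-sig UMIs) and Socs1 (17.1 against 52.3 CPM), Bcl2l1 (58.2 against 266 CPM) and the receptor genes Il9r (2 DP-sig UMIs) and Il21r (105 against 347 CPM). Bcl2 and Jak3 were thus near their mature levels in DP-sig cells, where Il7r stood at 6.99 CPM on 9 UMIs.

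In DN cells 9 of 46 listed genes were called higher and 17 lower than in DP cells, where 17.1% and 28.1% of all genes were, with a median log2 ratio of -0.64 against -0.31 over all 13161 genes. Ccnd2 stood at 15.5 against 0.317 CPM, Nkg7 at 5.35 against 0.106 CPM (2 DP UMIs), the chemokine gene Xcl1 at 22.4 against 1.06 CPM, Socs2 at 4.52 against 0.211 CPM (4 DP UMIs), Myc at 36.2 against 5.29 CPM and Cish at 2.22 against 0.423 CPM. Lower were Il2ra (3.51 against 67.5 CPM), Il4r (11.3 against 61.1 CPM), Bcl2l1 (59.8 against 266 CPM), Jak1 (401 against 1647 CPM) and Stat5b (88.4 against 335 CPM). Il2ra encodes the IL-2 receptor alpha chain CD25, a marker of a double-negative stage, and its level here was lower in the DN label than in DP cells. With cells thinned to 1000 UMIs the split was 0 higher and 16 lower. The 0 cannot decide whether the higher genes hold at equal depth, because thinning leaves few UMIs for genes at these levels. Il7r kept 6 UMIs in DN cells, under the 20 UMIs that a call needs. Its ratio to the 2 UMIs of DP cells was 39.7-fold (7.10 to 402).

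In the stroma, 17 of 43 listed genes were called in TMC4 against TMC1 to TMC3, 11 higher and 6 lower (9.59% and 12.2% of all genes), with a median log2 ratio of 0.09 against 0.05 over all genes compared. Beside Il7 and Il2rg, the higher ones included Ccnd2 (230 against 49.7 CPM), Jak3 (3.46 against 0.897 CPM), Ets1 (224 against 83.1 CPM), Runx1 (210 against 79.8 CPM), Pim1 (28.2 against 11.1 CPM), Crlf2 (23.3 against 10.3 CPM) and Bcl2 (193 against 91.5 CPM). Socs1 (6.84 against 29.8 CPM), Zbtb16 (9.78 against 50.4 CPM), Id2 (6.32 against 18.0 CPM), Pik3r1 (225 against 609 CPM) and Cish (5.62 against 14.5 CPM) were lower. Between TEC:cTEC and TEC:mTEC1, 2 of 44 listed genes were called higher (4.88% of all genes), Klf2 (53.5 against 22.1 CPM) and Zbtb16 (29.7 against 13.5 CPM), and 9 lower (9.21% of all genes), with a median log2 ratio of -0.11 against -0.02. The widest gap was in Il2ra, at 3.61 CPM in TEC:cTEC (18 UMIs) and 234 CPM in TEC:mTEC1 (1506 UMIs). Others lower in TEC:cTEC were Runx3 (1.20 against 12.1 CPM), Jak3 (1.00 against 6.68 CPM), Pik3cd (4.01 against 19.1 CPM), Tslp (1.20 against 4.20 CPM), Il4r (23.5 against 52.1 CPM) and Crlf2 (6.22 against 13.8 CPM).

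Across labels, each member was set against all other genes with at least 100 UMIs by Pearson's r of log2(CPM + 1), a description over labels that share a library. Over the 18 ranked stromal labels, Il7 was most like Col7a1, the collagen of anchoring fibrils (r = 0.92), Tns3, a focal adhesion gene (r = 0.92), and Mtss2 (r = 0.88). Il15 was most like Kidins220 (r = 0.91), Tet1, a DNA demethylation enzyme (r = 0.89), and Ryk, a Wnt receptor (r = 0.88), and Il15ra most like Adamts6, Alcam and Rsph3 (r = 0.84, 0.83 and 0.82). Il15 and its alpha chain Il15ra were hardly alike (r = 0.10), nor were Il7 and Il15 (r = 0.24). Over the 17 ranked thymocyte labels, Il7r was most like Plscr2 (r = 0.92), Ldhb, a lactate dehydrogenase (r = 0.91), and Rtp4, an interferon-induced gene (r = 0.89). Il2rb was most like Gfod1 (r = 0.83), Nfkb1, a subunit gene of NF-kB (r = 0.81), and Gnpnat1 (r = 0.81). Il2rg was most like R3hdm1 (r = 0.95), Stk39 (r = 0.94) and Stk4, a Hippo pathway kinase (r = 0.94). With Spearman's rho, none of the 3 for Il2rg and 1 of the 3 for Il15 stayed among the first 20, and over labels of at least 20 cells none of the 3 for Il15ra did.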

How the data were processed

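One stromal and 1 thymocyte library were analysed, with 1 sample per group, and the spatial section is not analysed here. Per the file headers, the deposited values are raw UMI counts per gene and barcode from Cell Ranger 8.0.0. The submitters' processing notes also name Seurat 5.3.0 and the build mRatBN7.2. In the deposited cell tables the authors give mitochondrial content as a percent of UMIs, and any filter on it is not given in the sources used here. Groups are the authors' projected label, or the initial cluster where none was given, and barcodes without either were left out.

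Counts were summed per label and divided by the label's total, with exact Poisson 95% intervals for CPM, Clopper-Pearson intervals for shares of cells, and exact conditional intervals for ratios. These cover counting error only, and cells are not replicates, so no p-value is given. A count of 0 allows up to 3 UMIs. Cells were thinned to 1000 UMIs with a fixed seed, which left out 83 stromal and 51 thymocyte cells below that depth. Contrasts were limited to genes with at least 20 UMIs in both classes together, and a call needed a 2-fold ratio and 20 UMIs in the higher class. No doublet caller was run. Python 3.11.15, NumPy 2.4.6, SciPy 1.17.1 and pandas 2.3.3 were used, and the ratio and likeness steps were tested on simulated data.

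Genes named are the 6 members, the genes of the 6 lists past 2-fold (up to 6 by fold per contrast, list and direction), and the 3 genes most like each member. The members and lists were chosen with earlier results of these data known. The splits of labels by cluster and the marker genes Nkg7, Cd5l and Ptcra in cells with and without Il7r were chosen after values were seen. Trdc, a further gene of the innate-like list, was not analysed here, and the values of 1 listed signalling gene are not reported here. Alternatives were other thinning, fold, count and cell filters, cluster labels, means over cells and the totals without mitochondrial, ribosomal protein and haemoglobin genes.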

Additional observations from a re-analysis of the deposited data

Results flagged for a closer look

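The stromal library also held 2934 barcodes without a label (8663291 UMIs), which no comparison used, and all 6 genes were above the level that a count of 0 allows there (0.346 CPM). Il7 stood at 58.1 CPM (503 UMIs), against 57.2 CPM in labelled cells. Il15 stood at 61.9 CPM (536 UMIs) against 88.8 CPM, and Il2rg at 12.2 CPM (106 UMIs) against 17.4 CPM. Il15ra stood at 12.6 CPM (109 UMIs) against 7.90 CPM, Il7r at 3.81 CPM (33 UMIs) against 2.37 CPM, and Il2rb at 1.27 CPM (11 UMIs) against 0.152 CPM.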

How the results depend on the processing

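Of 197 ratios recomputed under the alternatives, 165 stayed within the counting interval of the reported value, 29 left it, and 3 whose interval lay wholly above 1 fell below 1. A further 5, of ratios whose reported interval spans 1, came out on the other side of 1. The causes were not tested. The leads of Il7 (TMC4 over TEC:cTEC) and Il2rg (venous over Thymocyte) in the stroma were 1.05 and 1.14 with cells thinned to 1000 UMIs. By the mean of the CPM of cells they were 0.946 and 1.16. Initial clusters set other groups against each other. Their leads were 1.53 for Il7 (cluster TMC4 over TEC-b) and 1.18 for Il2rg (cluster Endo-1 over Thymocyte). Il2rg led by 1.23 when venous cells were limited to those with no T-lineage UMI and all Thymocyte cells were kept. That alternative was chosen after seeing the data. The Il7r lead stood at 0.194 without cells with 3 or more T-lineage UMIs. For TEC:cTEC over TEC:mTEC1, thinning gave 2.05 for Il7, 2.71 for Il15 and 0.632 for Il15ra, and the mean of cells 1.64 for Il7. Il7 in TMC4 was 7.13-fold after thinning. In the thymocyte library, thinning put the Il2rg lead at 0.658, and clusters put the Il7r lead (Mature SP over B+myeloid) at 1.96.

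For DN over DP, Il7r was 39.7-fold after thinning, 23.1-fold below the 99th percentile of UMIs and 83.4-fold by cluster. With label and cluster both (chosen after seeing the data) it was 41.8-fold. Il2rg was 0.543 after thinning, 0.558 without mitochondrial, ribosomal protein and haemoglobin genes and 0.459 with label and cluster both. Il15 was 0.278 by cluster. Ratios by cluster take all cells of a cluster, and clusters DN and Mature SP also hold cells of other labels. For DP-sig over DP, Il7r was 5.51-fold in the cells as deposited (2.25 to 12.3, 9 and 24 UMIs). Thinning gave 35.0 for Il7r on 4 and 2 UMIs (5.02 to 387) and a bound of 64.2 for Il2rb. For mature over DP cells, Il7r was 804 after thinning, 482 below the 99th percentile and 397 by cluster, Il2rb had a bound of 28.2 after thinning, and Il2rg was 1.17 after thinning, 1.56 without the gene classes named and 1.44 by cluster.

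Listed genes past the fold numbered 11, 17, 26, 22 and 29 for TEC:cTEC, TMC4, DN, DP-sig and mature cells. A fold of 3 gave 6, 7, 16 and 11 for the first 4, and thinning gave 6 (4 higher, 2 lower) for TEC:cTEC, 16 (0 and 16) for DN and 19 (9 and 10) for mature cells. The 0 higher for DN is limited by the few UMIs left after thinning, so nothing is read from it. Ratios by initial cluster could not be made for TEC:cTEC over TEC:mTEC1 or DP-sig over DP, nor thinned ratios with 0 UMIs left in the first class. No paired analysis was possible because no group held more than 1 sample. Depth limits the ratios to DP cells, whose Il2rb, Il7r and Il15ra levels rest on 1, 24 and 42 UMIs.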
